A study of Mus musculus with 6 samples.

Results

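The 45 genes described here were the mouse Cep and Haus genes on an Affymetrix expression array, out of 18193 genes with at least 1 probe set that the platform annotation gives to a single gene. They were chosen by symbol alone: Cep or Haus followed directly by a digit, which found 37 Cep and 8 Haus symbols with 92 probe sets. Each gene was represented by the probe set with the highest mean signal over all 6 arrays, and no difference between the groups entered this rule, although earlier results of these data were known when the set was picked. The RNA came from bone marrow KSL cells of C57BL/6J mice, that is c-Kit+Sca-1+Lin- cells, the gate that holds blood stem cells and early progenitors. Both groups were grown for 7 days over a layer of HUVECs, endothelial cells of the human umbilical vein, in serum-free medium with m5GF, a cocktail of mouse cytokines, and were then sorted again as KSL cells. The 3 arrays of one group had PBS added to the culture and the 3 of the other group had mD1R. The labels leave the name mD1R unexplained; in the study it stands for a recombinant protein in which the part of mouse Delta-like 1, a Notch ligand, that binds the receptor is joined to an endothelium-targeting motif. The labels call the arrays biological replicates without saying whether each came from its own mice, so p-values measure the spread between these samples. Because the RNA is from bulk cells, fewer cells of a type and less RNA per cell cannot be told apart.

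Cep proteins were named as parts of the centrosome, the centriole-based organelle that nucleates microtubules, organises a pole of the mitotic spindle and carries the primary cilium of resting cells. Centrioles are copied once per cell cycle, grow through the following phases and acquire appendages as they mature, and different Cep proteins serve each of these steps. The Haus proteins form augmin, a complex that binds existing spindle microtubules and recruits the gamma-tubulin ring complex to their sides, so that new microtubules branch off inside the spindle.

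With mD1R, 9 of the 44 Cep and Haus genes that could be tested fell and 1 rose. The 9 were Cep55, Cep128, Cep19, Cep131, Cep135, Cep152, Cep72, Haus4 and Haus5, and the 1 was Cep170b. The 9 made up 20.5% of the tested genes of the set, where 7.09% of all 12320 tested genes were lower by the same rule. The 1 higher gene was 2.27% of the set, beside 8.49% of all tested genes. The call was an adjusted p of 0.05 from limma, a linear model with a moderated variance, fitted over all 27022 probe sets above a mean log2 signal of 5.27. The differences of the 9 lower genes, as mD1R minus PBS on the log2 scale, ran from -1.61 to -0.96 with a median of -1.47. The remaining gene, Cep295nl, had the lowest mean signal of the set, 4.70, and was not tested. Its log2 signals were 5.35, 5.52 and 5.85 with PBS and 3.44, 5.22 and 2.82 with mD1R, so every mD1R array lay below every PBS array at levels under or near the filter.

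The other 34 tested genes passed in neither direction. In 21 of the 44 tested genes all mD1R arrays lay below all PBS arrays, where 18.1% of all tested genes did. In 1, Cep170b, all mD1R arrays lay above, where 22.1% of all tested genes did, and in the other 22 the groups overlapped. The median difference over the 44 genes was -0.43, beside 0.09 over all tested genes. Of the 44, 34 differences were negative (77.3%), beside 44.5% of all tested genes. These shares describe the set, and no test compared it with other genes.

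**Figure D1:**
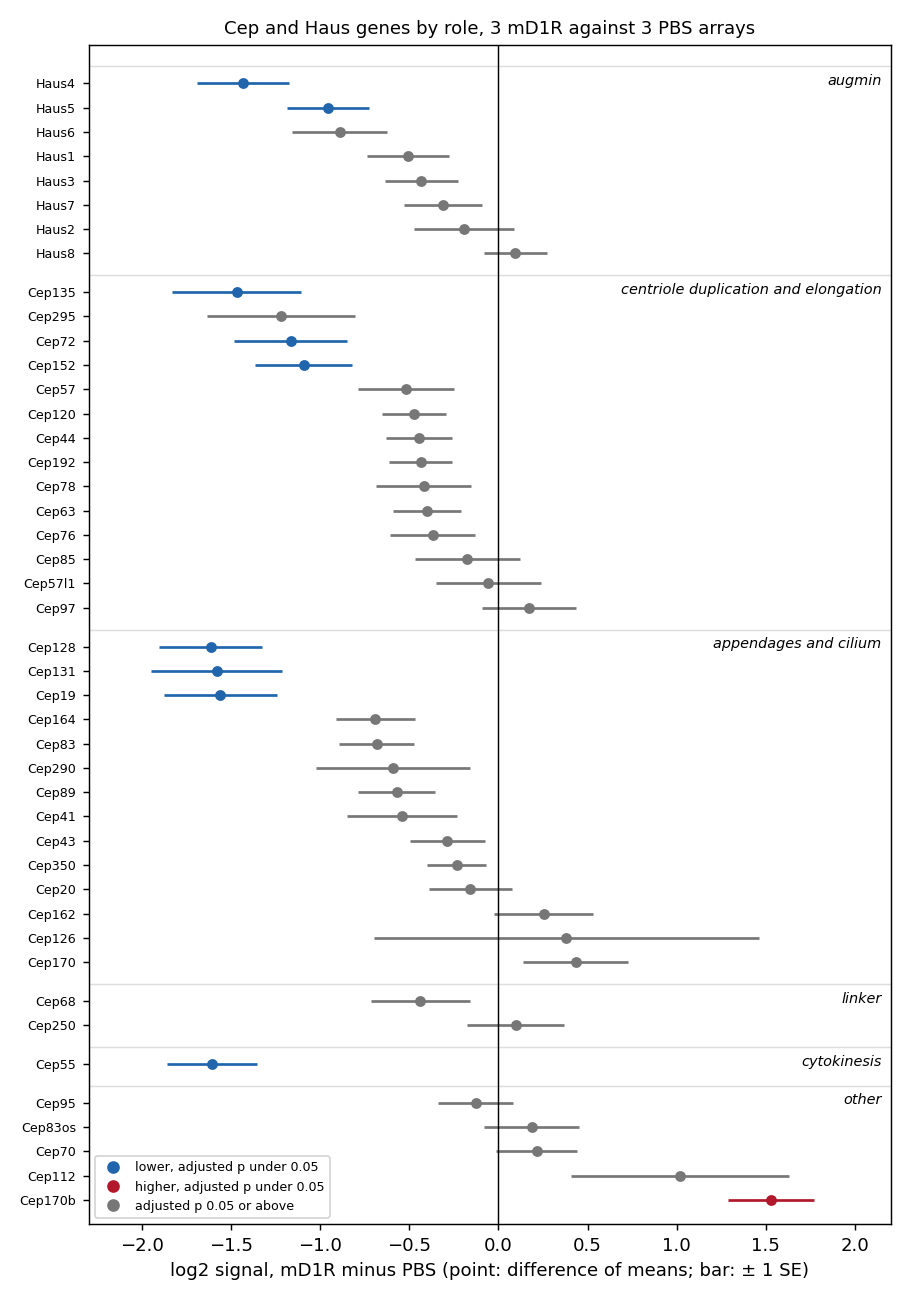
Log2 difference between the mD1R and the PBS mean for each Cep and Haus gene, grouped by role, with limma's standard error as the bar and the call as the colour (blue lower, red higher, grey neither). The 9 lower genes sit between -1.61 and -0.96, Cep170b stands alone at 1.53, and most of the other genes lie left of 0.

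Which genes passed depended on single arrays. Without PBS replicate 1, 2 or 3 the number of lower genes was 2, 0 and 0, and without mD1R replicate 1, 2 or 3 it was 4, 2 and 11. The lower calls over all 27022 probe sets, 1756 with every array, became 570, 212 and 0 and then 1125, 370 and 3042. Cep170b passed without PBS replicate 1 and without each of the mD1R arrays, and did not pass without PBS replicate 2 or 3. In all 9 lower genes every mD1R array lay below every PBS array, so leaving an array out could not turn a difference positive. The medians of these differences ran from -1.61 to -1.30. At an unadjusted p of 0.05, limma put 17 genes of the set lower and 1 higher. In either direction, 8048 of all 27022 probe sets tested reached this p. The same count of lower genes of the set without PBS replicate 1, 2 or 3 was 13, 13 and 13, and without mD1R replicate 1, 2 or 3 it was 14, 13 and 20. Over all probe sets, the counts in either direction were 7263, 6052 and 5853, and then 7326, 6353 and 9286. These unadjusted counts take both directions and count probe sets rather than genes. They cannot be set directly against the counts of lower genes of the set.

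The arrays themselves differed in known ways. The array medians were 6.07 to 6.42. The bacterial BioB control, relative to the other spike-in controls, stood at -3.09 to -2.99 on PBS replicate 1 and mD1R replicates 1 and 2 and at -5.56 to -5.50 on the other 3 arrays, a split found in the data that the labels do not record. Within the first set of arrays the median difference of the 44 genes was -0.70, and within the second it was -0.20. Of the 44 genes, 29 were negative in both sets, a count that was not made for all tested genes. The 9 lower genes were among them, as they had to be with groups that did not overlap. With the split as a block 6 of the 9 still passed, Cep72, Cep135 and Cep152 did not, and Cep164 did. Each set has a single array of one group, PBS replicate 1 in the first and mD1R replicate 3 in the second. Among the mD1R arrays, replicate 3 had the highest value in 8 of the 9 lower genes (88.9%) and in 74.7% of all genes called lower. The part of the split and of this array in the results was not tested.

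Some marker genes of other cell types and some proliferation genes differed between the groups too. Beside the counts that follow, 7.09% of all tested genes were lower and 8.49% higher. Of 14 mast cell and basophil markers tested, 11 were higher and 0 were lower, and the summed linear signal of that list was 42642 to 46932 with PBS and 89482 to 135858 with mD1R. Of 10 lymphoid markers 6 were lower and 1 was higher, with summed signals of 8245 to 14953 and of 7201 to 19059 and with 1 gene listed at 0 on an array. Of 12 neutrophil markers 1 was lower, with summed signals of 291543 to 369505 and of 57972 to 365274, and without mD1R replicate 3 this became 7. Without PBS replicate 3, 0 genes of these lists passed. Of 4 erythroid markers 1 was lower, and of 5 endothelial markers 1, Pecam1, was higher. The summed endothelial signals were 952 to 1904 with PBS and 2185 to 5237 with mD1R, and 3 of the 5 passed as higher with the spike-in split as a block. Without PBS replicate 1, 2 or 3 or mD1R replicate 2, 0 of them did. Of 11 proliferation genes 8 were lower, 0 were higher and the median difference was -1.73. Among the gate markers, Kit was 9.34 ± 0.57 (SD, n = 3) with PBS and 10.69 ± 0.97 (SD, n = 3) with mD1R, with a limma adjusted p of 0.109. Sca-1, encoded by Ly6a, was not analysed here because no probe set carries that symbol alone, and Cd4 lay below the filter. The lineage marker Itgam was at 12.07 ± 0.36 and 11.74 ± 0.19 (SD, n = 3 each). The part of these cell types and of cell division in the Cep and Haus results was not tested.

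Cep55 is the cytokinesis protein of the set: it sits at the midbody between dividing cells and brings in the ESCRT machinery that cuts the bridge. Its log2 signals were 11.41, 11.16 and 11.18 with PBS and 9.29, 9.46 and 10.17 with mD1R. The 3 mD1R arrays lay below all PBS arrays, with mD1R replicate 3 nearest to them. The difference was -1.61 ± 0.25 (SE), a 3.05-fold lower signal, with a limma adjusted p of 0.0126. A second, dimmer probe set of Cep55 was lower too, by -2.46 ± 0.62 with an adjusted p of 0.0391. The difference of Cep55 was -2.04 within the first spike-in set and -0.997 within the second.

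Cep55 can be set beside other genes of the last step of division. Of 11 abscission genes tested, 4 fell and 0 rose, beside 7.09% and 8.49% of all tested genes. The median difference was -0.11. The 4 were Kif23 and Racgap1, which form the centralspindlin complex of the midzone, the furrow scaffold Anln and the cytokinesis gene Ect2. Kif23 went from 11.14 ± 0.24 to 9.14 ± 0.17 (SD, n = 3 each) with a limma adjusted p of 0.0096. Anln differed by -2.16 ± 0.36 (0.014) and Ect2 by -1.71 ± 0.30 (0.0152). The 3 ESCRT-related genes that act with Cep55 did not pass: Pdcd6ip (ALIX) differed by 0.30 ± 0.20, Tsg101 by 0.46 ± 0.17 and Chmp4b by 0.49 ± 0.18. The other ESCRT-related genes tested in this list did not pass either and lay nearer to no difference. Chmp2a was at -0.11, Chmp1a at -0.07, Vps4a at -0.21 and Vps4b at 0.15. Whether Cep55 and these genes differ from each other was not tested. Without PBS replicate 1, 2 or 3 the 4 lower abscission genes became 1, 1 and 0, and without mD1R replicate 2 they became 3.

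Promoters are shown for the lower genes whose windows hold a short sequence bound by E2F, the factor family that drives many cell cycle genes. The windows are from RefSeq on GRCm38.p6, which listed 39 of the 45 genes, and each runs from 250 bases before the start site to 30 after it, 5′ to 3′ on the gene's strand. Capitals mark the E2F letters GGCGGGA (reverse TCCCGCC), the CHR letters TTTGAA or TTCGAA (reverse TTCAAA for the first) and the CCAAT box (reverse ATTGG), each searched on both strands. The Cep55 window is chr19:38054734-38055013 on the plus strand, and the other windows are on the minus strand: Cep72 at chr13:74062256-74062535, Cep152 at chr2:125625084-125625363 and Haus4 at chr14:54554332-54554611.
Cep55: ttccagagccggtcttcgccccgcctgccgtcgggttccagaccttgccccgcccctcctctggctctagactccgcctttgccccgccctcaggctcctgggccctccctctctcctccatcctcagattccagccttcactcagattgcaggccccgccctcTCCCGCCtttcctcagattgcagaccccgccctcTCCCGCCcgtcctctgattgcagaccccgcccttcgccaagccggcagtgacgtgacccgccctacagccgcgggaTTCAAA
Cep72: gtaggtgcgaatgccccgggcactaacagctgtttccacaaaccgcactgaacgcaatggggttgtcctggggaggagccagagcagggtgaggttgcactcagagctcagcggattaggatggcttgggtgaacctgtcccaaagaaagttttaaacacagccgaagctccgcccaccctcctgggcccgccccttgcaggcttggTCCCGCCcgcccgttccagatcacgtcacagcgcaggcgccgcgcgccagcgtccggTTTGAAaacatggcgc
Cep152: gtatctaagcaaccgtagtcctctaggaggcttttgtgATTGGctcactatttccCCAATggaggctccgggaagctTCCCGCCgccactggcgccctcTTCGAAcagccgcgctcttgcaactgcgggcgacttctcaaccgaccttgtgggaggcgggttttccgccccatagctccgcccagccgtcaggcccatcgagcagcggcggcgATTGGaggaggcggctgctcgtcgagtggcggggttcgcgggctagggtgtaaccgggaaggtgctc
Haus4: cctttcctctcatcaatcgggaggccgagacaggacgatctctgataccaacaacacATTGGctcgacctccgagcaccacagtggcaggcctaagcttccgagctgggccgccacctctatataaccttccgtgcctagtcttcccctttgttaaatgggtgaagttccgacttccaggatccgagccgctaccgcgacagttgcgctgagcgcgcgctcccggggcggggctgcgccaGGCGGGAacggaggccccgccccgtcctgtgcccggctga
Cep55 has a pair of start sites in the table, and from the one shown it holds the E2F letters at -86 and -52 and CHR letters at 25. From the other start the same letters lie at -143, -109 and -33. Cep72 holds E2F letters at -43 and CHR letters at 15, and Haus4 holds E2F letters at -10. Cep152 holds all 3 kinds: CCAAT boxes at -212, -195 and -37, E2F letters at -173 and CHR letters at -151.

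Over windows of 300 bases, from 250 before to 50 after the start, the E2F letters were found in 4 of the 9 lower genes (44.4%) and in 10 of the other 30 genes of the set with a window (33.3%). They were found in 23.3% of all tested genes, in 28.4% of all genes called lower and in 12.7% of all genes in the table. The CHR letters were in 3 of the 9 lower genes (33.3%), in 7 of the other 30 (23.3%), in 26.7% of all genes called lower and in 16.5% of all tested genes. Letters of either kind, E2F or CHR, were in 4 of the 9 lower genes (44.4%) and in 15 of the other 30 (50%). Among all genes called lower this share was 49.1%, and among all tested genes 36.5%. CCAAT boxes were in 44.4% of the lower genes and 53.3% of the others, beside 42.5% of all tested genes. Cep128, Cep19 and Haus5 were lower and held none of these letters in their windows. Haus8, the augmin gene with the smallest difference between the groups, held E2F letters at -62. A match describes letters only, and these shares were not tested.

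In the augmin complex, 2 of 8 subunits passed as lower, 0 as higher, and the median difference was -0.47 with a range of -1.43 to 0.10. The shares over all tested genes were 7.09% lower and 8.49% higher. Haus4 had log2 signals of 11.31, 10.79 and 10.95 with PBS and 9.35, 9.33 and 10.08 with mD1R. Haus5 had 8.51, 8.11 and 8.33 with PBS and 7.23, 7.41 and 7.44 with mD1R. In both subunits the groups did not overlap, and in Haus4 mD1R replicate 3 stood above the other mD1R arrays. Over all tested genes, 18.1% had every mD1R array below every PBS array. Haus4 differed by -1.43 ± 0.26, a 2.7-fold lower signal, with a limma adjusted p of 0.0165, and Haus5 by -0.96 ± 0.23, 1.94-fold lower, with 0.0339.

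The other 6 subunits did not pass. Haus6, the subunit that binds Nedd1 of the gamma-tubulin ring complex, came nearest: 9.30, 8.94 and 9.07 with PBS and 8.43, 7.71 and 8.49 with mD1R, without overlap. Its difference was -0.89 ± 0.27 with a limma adjusted p of 0.0643, and a second Haus6 probe set differed by -0.19. Haus1 had 10.26, 9.60 and 9.83 with PBS and 9.30, 9.24 and 9.62 with mD1R, a difference of -0.51 ± 0.23 in which 1 mD1R array reached into the PBS range. Haus3 had 10.98, 10.41 and 10.56 with PBS and 10.12, 10.13 and 10.39 with mD1R, a difference of -0.43 ± 0.21 in which all mD1R arrays were lower by a narrow margin. Haus7 had 8.84, 9.10 and 9.22 with PBS and 8.45, 8.88 and 8.89 with mD1R, and the groups overlapped.

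Haus2 and Haus8 lay closest to 0. Haus2 had 9.27, 9.02 and 8.89 with PBS and 9.43, 8.51 and 8.65 with mD1R, with the highest value of all on an mD1R array. Of its 3 further probe sets, 1 had the opposite sign, at 0.11, and the others were at -0.072 and -0.65, with no call. Haus8, the subunit that attaches augmin to the microtubule, had 10.02, 10.02 and 9.997 with PBS and 9.93, 10.09 and 10.30 with mD1R, a difference of 0.10 ± 0.18. No test compared one subunit with another. Without PBS replicate 1, 2 or 3 or mD1R replicate 2 no augmin gene passed (0 of 8), without mD1R replicate 1 Haus4 alone passed, and without mD1R replicate 3 Haus6 passed as well. Of the gamma-tubulin ring complex, which augmin recruits, 0 of 9 tested genes passed in limma, with a median difference of -0.17. The nearest was Tubgcp6, at -0.92 ± 0.28 with an adjusted p of 0.0686. Without mD1R replicate 3, 1 gene of this complex passed as lower.

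**Figure D2:**
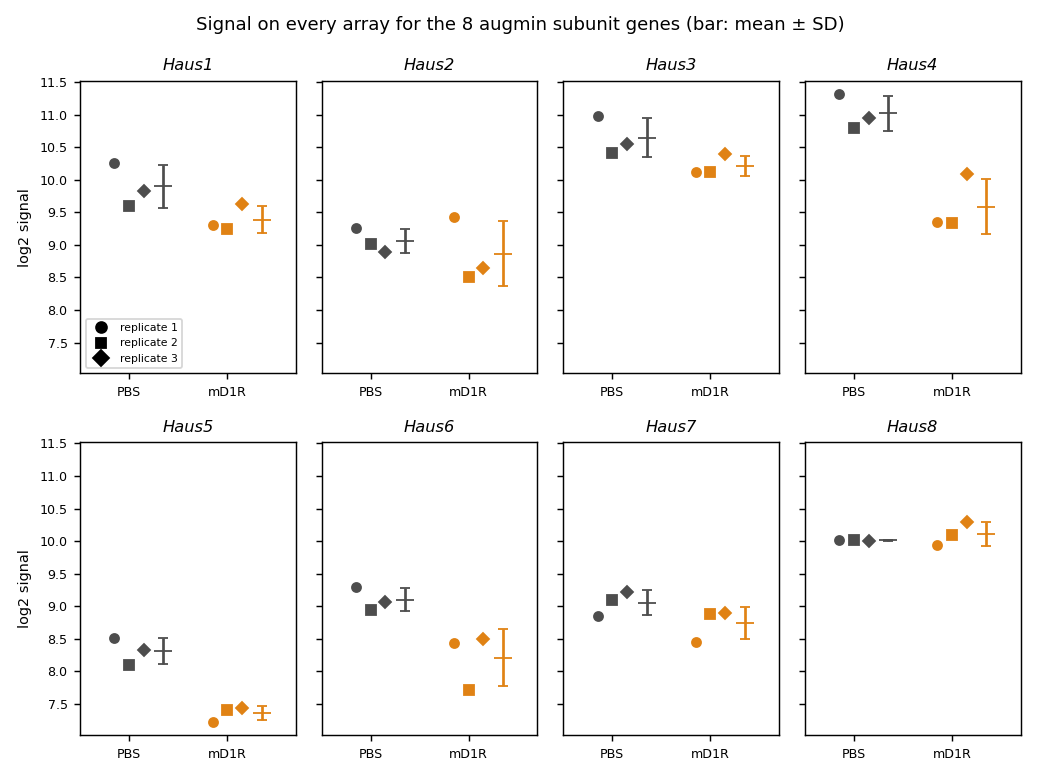
Log2 signal of the 8 augmin subunits on each of the 6 arrays, with 1 panel per gene, PBS in grey, mD1R in orange and a bar for the group mean ± SD. The groups do not overlap in Haus4 and Haus5, which passed, nor in Haus3 and Haus6, which did not. They lie on top of each other in Haus8, near 10. Over all tested genes, all mD1R arrays lay below all PBS arrays in 18.1%.

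Of 14 genes that serve the copying and growth of centrioles, 3 fell and 0 rose, and the median difference was -0.44 with a range of -1.47 to 0.17. By the same rule 7.09% of all tested genes fell and 8.49% rose. Cep152, the scaffold that recruits the kinase Plk4 to the parent centriole, had log2 signals of 8.92, 8.45 and 8.99 with PBS and 7.55, 7.42 and 8.11 with mD1R. Cep135, which joins the cartwheel to the microtubule wall of the new centriole, had 6.74, 6.90 and 6.49 with PBS and 5.45, 4.75 and 5.52 with mD1R. Cep72, a protein of the satellites around the centrosome, had 7.55, 7.41 and 7.19 with PBS and 5.87, 6.10 and 6.69 with mD1R. In all 3 the highest mD1R array stayed below the lowest PBS array, as in 18.1% of all tested genes. The differences were -1.09 ± 0.27 for Cep152 (2.13-fold lower, limma adjusted p 0.0383), -1.47 ± 0.36 for Cep135 (2.77-fold, 0.0373) and -1.16 ± 0.32 for Cep72 (2.24-fold, 0.0496).

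These 3 calls sat near the threshold and were lost, to 0 of 14, with any one array left out other than mD1R replicate 3, and with the spike-in split as a block. Cep135 and Cep72 were also dim, with means of 5.98 and 6.80 over the 6 arrays.

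In the other 11 genes of this group no call was made. In 5 of them all mD1R arrays lay below all PBS arrays, where 18.1% of all tested genes did. Cep192, which recruits Plk4 alongside Cep152, differed by -0.44 ± 0.18, and Cep63, the partner of Cep152, by -0.40 ± 0.19. Cep120, which lengthens centrioles, differed by -0.47 ± 0.18, and Cep295, which turns a new centriole into a working centrosome, by -1.22 ± 0.41. Their limma adjusted p-values ran from 0.0922 to 0.204. Cep57, a pericentriolar protein, had 10.24, 9.49 and 9.54 with PBS and 9.14, 8.999 and 9.57 with mD1R, and its brightest probe set was not called. A second Cep57 probe set was called lower, at -0.89 ± 0.21 with a limma adjusted p of 0.0330.

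Probe sets disagreed in direction for Cep85 and Cep97 as well: the second Cep85 probe set was at 0.23, and of the 3 further Cep97 probe sets 1 was opposite, at -0.045, and the others were at 0.060 and 0.62. Cep85 had 9.13, 9.28 and 9.82 with PBS and 9.57, 8.70 and 9.45 with mD1R, and Cep97, which caps centrioles together with Ccp110, had 8.36, 7.91 and 7.60 with PBS and 7.93, 8.21 and 8.24 with mD1R. The groups overlapped in both genes, and no probe set of either passed.

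The partners of these proteins under other names had more calls. Of 22 centriole assembly and pericentriolar genes, 9 fell and 0 rose, beside 7.09% and 8.49% of all tested genes. Their median difference was -0.70. Plk4, the kinase that starts duplication, differed by -1.65 ± 0.24 (limma adjusted p 0.0113), Nek2, which releases the link between centrosomes, by -1.68 ± 0.21 (0.0104), and Aspm, a spindle pole protein, by -2.04 ± 0.32 (0.0121). The other 6 were Sass6, Stil, Cenpj, Pcm1, Ccp110 and Poc1a. The number of lower genes was 3, 3 and 0 without PBS replicate 1, 2 or 3 and 5, 3 and 10 without mD1R replicate 1, 2 or 3.

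Of 14 genes of the centriole appendages and the cilium, 3 fell and 0 rose, and the median difference was -0.55 with a range of -1.61 to 0.43. Among all tested genes, 7.09% fell and 8.49% rose. Cep128, a subdistal appendage protein, had log2 signals of 10.71, 10.33 and 10.30 with PBS and 9.003, 8.23 and 9.26 with mD1R. Cep19, which acts at the mother centriole when a cilium is started, had 11.40, 11.97 and 12.19 with PBS and 9.87, 10.08 and 10.92 with mD1R. Cep131, a satellite protein needed for cilia, had 7.16, 7.31 and 7.42 with PBS and 5.61, 6.35 and 5.18 with mD1R. None of the 3 overlapped between groups, where 18.1% of all tested genes had all mD1R arrays below all PBS arrays. Cep131 was the only 1 of the 9 lower genes in which mD1R replicate 3 was not the highest mD1R array.

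The differences were -1.61 ± 0.29 for Cep128 (3.06-fold lower, limma adjusted p 0.0162), -1.56 ± 0.32 for Cep19 (2.95-fold, 0.0220) and -1.58 ± 0.37 for Cep131 (2.99-fold, 0.0313). Of 3 further Cep128 probe sets, those at -1.63 (0.0357) and -2.34 (0.0111) were called lower and the one at -1.31 (0.0702) was not. Without PBS replicate 1, 2 or 3 the number of lower genes in this group was 1, 0 and 0, and without mD1R replicate 1, 2 or 3 it was 2, 2 and 4.

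The 3 distal appendage genes of the same group, which dock the centriole at the membrane, had smaller differences and did not pass. Cep83 differed by -0.68 ± 0.21, Cep164 by -0.69 ± 0.22 and Cep89 by -0.57 ± 0.22, with limma adjusted p-values of 0.0696 to 0.123. On these brightest probe sets the groups did not overlap, with mD1R below PBS, as in 18.1% of all tested genes. On the dimmer probe sets above the filter the groups did overlap, with Cep83 at -0.16 and -0.26, Cep164 at -0.20 and Cep89 at -0.40. Cep83 passed without mD1R replicate 3 and with array weights, and Cep164 with the spike-in split as a block. Cep170, a subdistal appendage protein, had the highest difference of the group, 0.43 ± 0.29. A second Cep170 probe set of similar brightness was at 0.68 ± 0.22, with a limma adjusted p of 0.0811. On that probe set all mD1R arrays lay above all PBS arrays. Cep126 could not be placed, with signals from 3.29 to 7.06 and a difference of 0.38 ± 1.08. Cep162 had 7.18, 7.54 and 7.26 with PBS and 7.97, 7.31 and 7.45 with mD1R, with overlap. Of its 2 further probe sets, 1 had the same sign, at 0.45, and the other the opposite sign, at -0.091. Cep20 had the highest mean signal of the whole set, 11.36, with 11.28, 11.54 and 11.49 with PBS and 10.85, 11.32 and 11.67 with mD1R, and the groups overlapped.

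Of 15 appendage and cilium genes tested outside the set, 3 fell, 1 rose, and the median difference was -0.28. Over all tested genes, 7.09% were called lower and 8.49% higher. The subdistal appendage protein Nin differed by -1.997 ± 0.26 (limma adjusted p 0.0109) and Cntrl by -1.63 ± 0.27 (0.0136), and Odf2, which builds the appendages, by -0.77 ± 0.16 (0.0248). Kif3a, a motor of transport within cilia, differed by 1.75 ± 0.29 (0.0136). The lower calls became 2, 1 and 0 without PBS replicate 1, 2 or 3, and 2 without mD1R replicate 2. Kif3a was not called without PBS replicate 2 or 3 or without mD1R replicate 2.

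**Figure D3:**
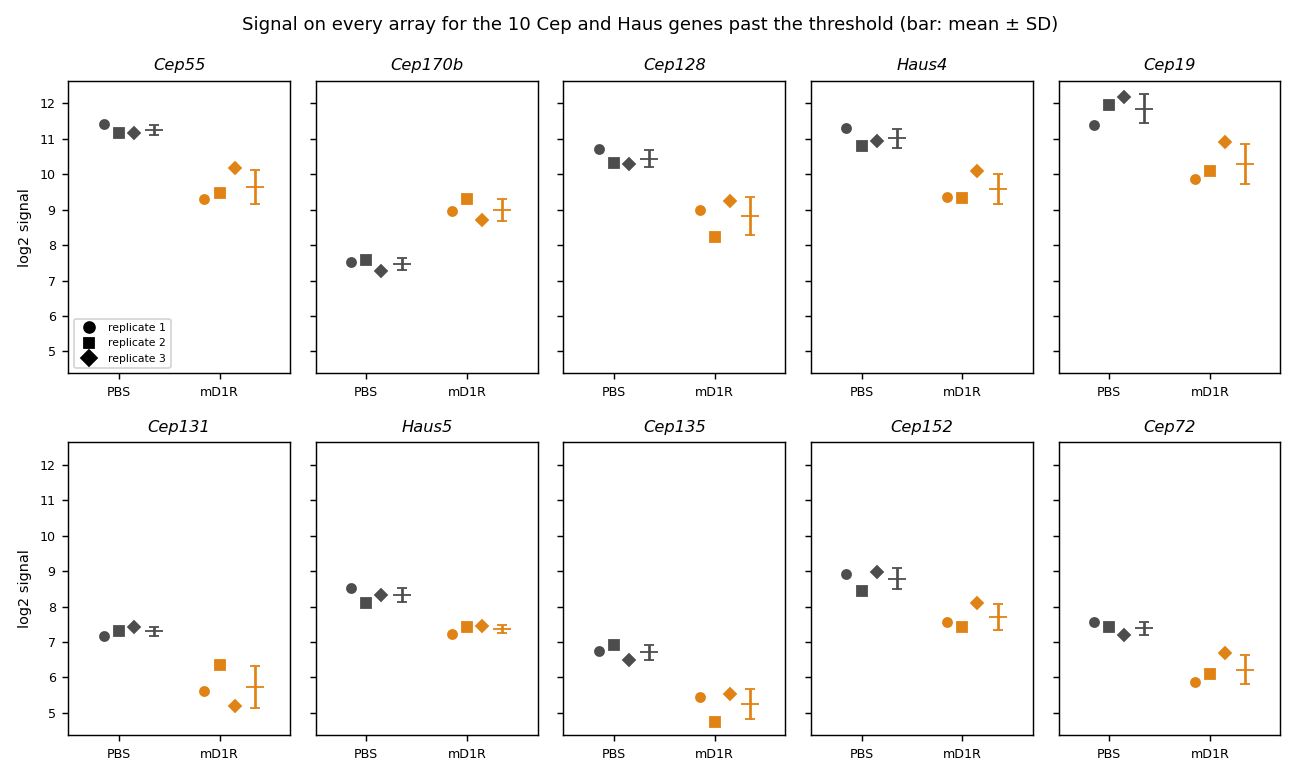
Log2 signal on each of the 6 arrays for the 10 genes that passed, with 1 panel per gene, PBS in grey, mD1R in orange and a bar for the group mean ± SD. In the 9 lower genes every mD1R point lies below every PBS point, and in Cep170b, with mD1R values of 8.70 to 9.31, every mD1R point lies above.

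Cep170b, the paralog of Cep170 and a microtubule-binding protein, was the 1 gene of the set that rose. Its log2 signals were 7.54, 7.59 and 7.27 with PBS and 8.97, 9.31 and 8.70 with mD1R. The lowest mD1R array was above the highest PBS array by more than the range of either group. The difference was 1.53 ± 0.24, a 2.89-fold higher signal, with a limma adjusted p of 0.0126, and it was 1.60 and 1.27 within the first and second spike-in sets.

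Both genes of the linker that ties the parent centrioles together overlapped between groups. Cep250, the anchor of the linker, had 6.54, 6.68 and 6.73 with PBS and 6.58, 6.75 and 6.91 with mD1R. Cep68, a filament component, had 9.50, 8.70 and 8.58 with PBS and 8.48, 8.40 and 8.59 with mD1R, and of its 4 other probe sets the 2 above the filter had the opposite sign, at 0.64 and 0.29. The other 2 lay below the filter, at -1.71 and 0.13. Of the genes with no assigned role other than Cep170b, Cep112 differed by 1.02 ± 0.61 on PBS values that ranged widely (4.06 to 6.54). Cep70 had 8.74, 8.74 and 8.41 with PBS and 8.55, 8.94 and 9.05 with mD1R, with a second probe set of the opposite sign. Cep83os, an antisense transcript at Cep83, differed by 0.19 ± 0.27 and the groups overlapped.

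Spindle genes outside the set gave the largest share of calls among the lists of centrosome and division genes. Of 10 spindle microtubule genes tested, 9 fell and 0 rose, beside 7.09% and 8.49% of all tested genes. Their median difference was -1.85. Prc1, which bundles midzone microtubules, went from 11.18 ± 0.16 to 9.34 ± 0.39 (SD, n = 3 each). Nusap1 went from 12.13 ± 0.25 to 10.12 ± 0.56, and the centrosome kinase Aurka from 11.02 ± 0.25 to 9.07 ± 0.52. Among the proliferation genes, the cyclins Ccna2 and Ccnb2 differed by -1.79 ± 0.23 and -2.19 ± 0.30, and Cdk1 by -1.55 ± 0.24. The lower spindle genes became 5, 5 and 0 without PBS replicate 1, 2 or 3 and 7, 5 and 9 without mD1R replicate 1, 2 or 3, and the lower proliferation genes 5, 5 and 0 and 8, 5 and 10. The lists were chosen with results of these data in view, and no test compared one list with another.

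**Figure D4:**
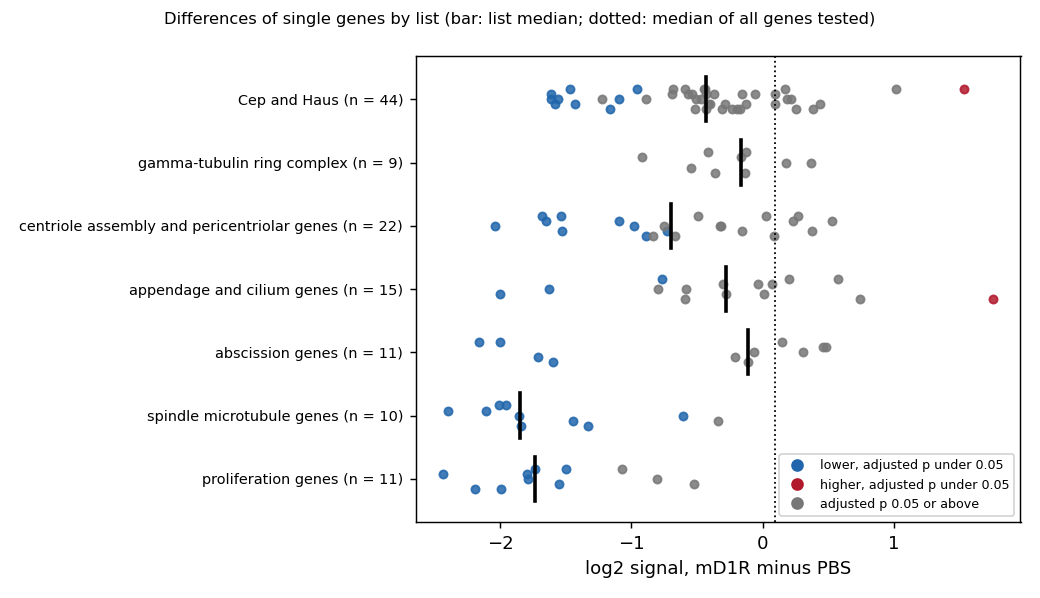
Log2 difference between the mD1R and the PBS mean for every tested gene of the Cep and Haus set and of 6 related lists, with the list median as a line, the median of all tested genes as a dotted line and calls in colour (blue lower, red higher). The medians run from -1.85 for spindle genes and -1.73 for proliferation genes to -0.11 for abscission genes, with the Cep and Haus genes at -0.43.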

How the data were processed

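Total RNA of 6 samples, 3 PBS and 3 mD1R, was measured on Affymetrix 3' arrays, 1 per sample. The authors deposited log2 signals made with MAS5, per the submitters' processing notes. The version and the other steps are not given in the sources used here. On the linear scale each array had a 2% trimmed mean of 500, so arrays had been scaled singly, and 239 to 422 values per array were listed at log2 0. MAS5 subtracts mismatch signal, which makes dim values noisy. No detection calls were used.

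A linear model without covariates was fitted to these log2 values in limma (3.58.1, R 4.3.3), with trended moderated variances and two-sided p-values, and was tested on simulated data. The file holds 45101 probe sets, 64 of them controls. A probe set entered the fit when its mean over the 6 arrays reached the 40th percentile (5.27), as 27022 did. Benjamini-Hochberg adjustment ran over all of these, with a threshold of 0.05. Genes were named from the platform annotation, where 34945 probe sets carry 1 symbol. Errors of differences are limma's standard errors, with a median of 0.31, and the number of arrays limits the precision. Within each group, no pair of arrays had identical nonzero values (0 probe sets); pairs across groups were not compared.

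The genes, their roles and the other lists were chosen with earlier results of these data known, and roles are background knowledge. Array values are given for up to 5 called genes per role, or else the 2 with the smallest p. They are also given for every Haus gene, Cep55, the brightest and dimmest genes, the higher gene, and genes whose probe sets disagree in sign or call. For other lists up to 3 called genes are named by smallest p, or else the 1 nearest. Itgam, the ESCRT genes, other listed partners and further genes of the set without a call were named after their values were seen.

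Replicate numbers recur in both groups, but the labels state no pairing and the same-numbered arrays' deviations correlated at 0.31, 0.03 and 0.13. The alternatives covered scaling, pseudocount, filter, variance model, array weights, blocks, probe set choice, threshold and each array left out.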

Additional observations from a re-analysis of the deposited data

How the results depend on the processing

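The 9 lower genes and Cep170b kept their direction under every alternative in which they were tested. Their groups did not overlap, so leaving an array out or adding a block could not have turned them. The filter at the 60th percentile left Cep72, Cep131 and Cep135 out. With no filter, 5 genes of the set were lower; Cep72, Cep131, Cep135 and Haus5 did not pass. With no variance trend 2213 probe sets passed in place of 3413, and with array weights 6508. At an adjusted p of 0.01, 108 probe sets passed in limma, with 0 lower and 0 higher genes of the set. With one array left out, 0 to 5565 probe sets passed, 0 to 11 genes of the set were lower and 0 to 1 higher, and the median difference of the set ran from -0.49 to -0.32. At an unadjusted p of 0.05, limma gave 5853 probe sets without PBS replicate 3, where 0 passed after adjustment, and 6052 without PBS replicate 2. Over the other alternatives the median ran from -0.44 to -0.37. With the replicate number as a block, 4619 probe sets passed in either direction and 8 genes of the set passed as lower: Cep72 and Cep135 were lost and Haus6 was gained. The labels do not pair the arrays, so a call lost there is not a smaller difference. Over all 44 tested genes, 0 of the called genes turned sign and 7 of the others did under a setting that kept the probe set. As the groups of the called genes did not overlap, these counts are not a like comparison. With all probe sets averaged, Cep70 was at -0.040 and Cep85 at 0.030. With one array left out, Cep85 ran from -0.34 to 0.09 (0.029 without PBS replicate 3, 0.094 without mD1R replicate 2), Cep97 from -0.0047 (without PBS replicate 3) to 0.37, Cep20 from -0.35 to 0.057 (without mD1R replicate 1) and Haus8 from -0.00043 (without mD1R replicate 3) to 0.18. Cep126 was at -0.73 without PBS replicate 2, Cep57l1 at 0.21 without PBS replicate 1 and Cep83os at -0.042 without mD1R replicate 2. The cause of these changes was not tested. The fit without a filter took in more probe sets, and the fits with one array left out had fewer arrays. Genes near the filter, such as Cep135, have the least signal behind their values.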
